A study of Mus musculus with 10 samples.

Results

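Efferocytosis is the clearance of apoptotic cells by phagocytes, and 10 genes of this process were examined in mouse peritoneal macrophages by RNA-seq. They were the receptor tyrosine kinases Mertk, Axl and Tyro3, their ligands Gas6 and Pros1, the phosphatidylserine receptor gene Timd4, the secreted scavenger protein gene Cd5l, the bridging protein gene Mfge8, the integrin subunit gene Itgb5 and the large endocytic receptor gene Lrp1. The members were chosen by name, and each was matched through its NCBI gene identifier to 1 of the 39488 rows of the count table, so that all 10 had a row. The macrophages came from C57BL/6 mice aged 8 weeks and were collected on the third day after thioglycollate, which draws new macrophages into the peritoneal cavity. According to the labels, 5 control cultures were untreated, and 5 cultures, called ox-LDL here, were given 100 ng/ml of LPS, the endotoxin sensed by Toll-like receptor 4, and then ox-LDL, which is oxidized low-density lipoprotein, for 16 h at 100 µg/ml. The free-text protocol of every sample, controls included, describes stimulation, and the treatment label was followed. As LPS and ox-LDL were given to the same cultures, their effects cannot be told apart.

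Dying cells expose phosphatidylserine on their surface, and macrophages recognize it directly or through soluble bridging proteins. MERTK, AXL and TYRO3, together the TAM receptors, bind it through GAS6 or protein S, the product of Pros1. TIM-4 binds phosphatidylserine directly, and MFG-E8 links it to the integrins αvβ3 and αvβ5. In atherosclerotic plaques, clearance of dead macrophages by these routes is known to limit the growth of the necrotic core, and TAM signaling is also known to dampen Toll-like receptor responses.

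The total estimated count was 20094647 to 20687289 per control library and 19257131 to 20358017 per ox-LDL library. Levels are given as CPM, counts scaled to a common library size with TMM normalization, which scales libraries by the majority of their genes. The TMM factors ran from 0.593 to 1.19. The lowest was that of ox-LDL replicate 2, in which long genes were low against the group mean (Spearman's rho of the deviation with gene length across genes, -0.65). The same direction was seen in control replicate 1 (-0.57) and control replicate 4 (-0.46). Summed over 8 macrophage genes, the level scaled by library size alone was 23087 to 42784 CPM in the control and 12947 to 28168 CPM in the ox-LDL libraries, most of it from Lyz2, which other myeloid cells also express. Without Lyz2, the other 7 genes summed to 1869 to 3592 CPM in the control and 1829 to 4572 CPM in the ox-LDL libraries, far above the sums of the other marker lists. Summed over the list of mesothelial and fibroblast markers, it was 18.6 to 62.8 CPM in the control and 66.8 to 178 CPM in the ox-LDL libraries without overlap. Of the 6 members tested, 3 were higher, among them Col1a1 and Dcn. With TMM normalization, the mesothelial genes Msln and Upk3b were at most at 0.287 and 0.940 CPM in any library. Wt1 of the same list reached 2.44 CPM, with means of 1.26 CPM in the control and 2.10 CPM in the ox-LDL group, and was not among the 3. The part of these cells in the results below was not tested, and in bulk RNA fewer cells of a type and less RNA per cell cannot be told apart.

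Of the 10 genes, Axl and Timd4 were higher and Pros1 and Itgb5 were lower in ox-LDL-treated macrophages. Mertk, Gas6, Cd5l, Mfge8 and Lrp1 did not pass the threshold, and Tyro3 had too few counts to be tested. The test was the quasi-likelihood (QL) test of edgeR, s.e. denotes the standard error of a log2 fold change, and a gene was called when its p, adjusted by the Benjamini-Hochberg method over the 12654 genes tested, was below 0.01. Among all genes tested, 14.7% were called, 9.4% as higher and 5.35% as lower, against 2 higher and 2 lower of the 9 members that were tested. This background depended on single libraries, with 1755 higher and 1502 lower calls among 12973 genes without ox-LDL replicate 2, and 436 lower without control replicate 4 and 437 lower without ox-LDL replicate 3, against 1189 higher and 677 lower among 12654 with all libraries. With a log2 fold change beyond 2 as an additional requirement, Timd4 was left among the higher and Pros1 and Itgb5 among the lower members, and 4.78% and 1.93% of all genes passed in these directions. The control and ox-LDL libraries did not overlap in 5 of the 9 members, against 20.7% of all genes tested. The members were chosen with earlier results of these data known, so their counts beside these shares are a description and not a test. The median log2 fold change was -0.21 over the 9 members and 0.10 over all genes. Among the calls of the same direction ranked by p, Itgb5 stood at place 48 of 677, Pros1 at 314 of 677, Timd4 at 622 of 1189 and Axl at 1149 of 1189. Timd4, with 15 counts in all controls together, passed the filter on low counts through the ox-LDL libraries alone. The filter itself thus favored a difference, and the call, the lack of overlap and the place of Timd4 carry this limit. On the length-scaled values, where the balance over all genes was 555 higher and 750 lower in place of 1189 and 677, Pros1 and Itgb5 were called and Axl was not, and Timd4 was too low to enter.

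**Figure D1:**
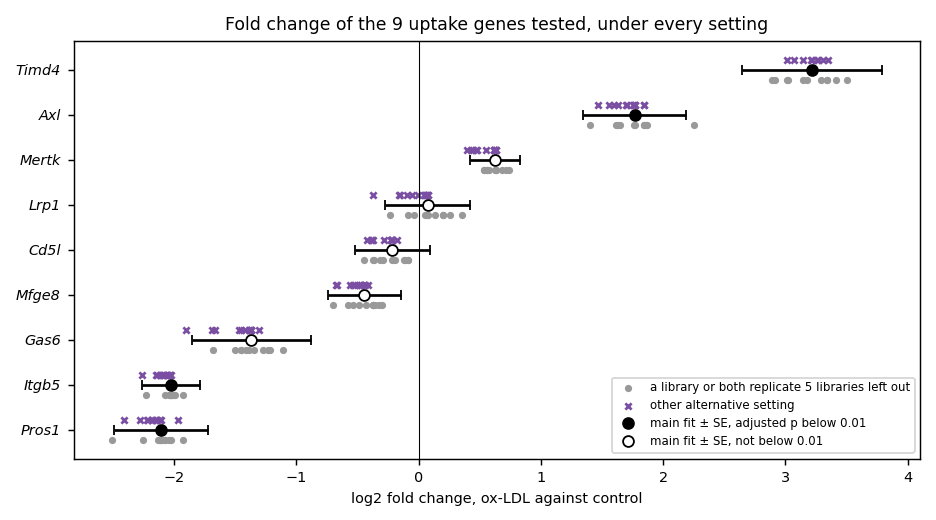
Log2 fold change of ox-LDL against control for the 9 members tested, with black points for the estimate and bars for 1 s.e. (edgeR's quasi-likelihood test, 5 libraries per group). Black points are filled where the adjusted p was below 0.01 and open otherwise. Grey points show fits with a library or both replicate 5 libraries left out, and crosses show the other alternative settings. Timd4 (3.22) and Axl (1.77) lie to the higher side and Pros1 (-2.11) and Itgb5 (-2.03) to the lower side.

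The promoters of the 4 called genes are shown because they are the members that moved, and motifs tied to interferon, STAT and nuclear receptor control of macrophage genes were searched in them. All 10 members had an entry among the RefSeq promoters of GRCm38.p6, which run from 250 bases before to 50 bases after the start of the gene and are read here along the gene's own strand. The letters searched on both strands were GAAA followed after any 2 bases by a second GAAA (interferon-stimulated response element type) and TTCNNNGAA (GAS, the STAT site). The others were AGGAAGTG (ETS type), AGGTCA (a nuclear receptor half-site, not a full element) and the NF-kB motif. Capitals mark a match. The intervals are chr7:25788684-25788983 on the minus strand for Axl, chr11:46810549-46810848 on the plus strand for Timd4, chr16:62854057-62854356 on the plus strand for Pros1 and chr16:33829415-33829714 on the plus strand for Itgb5.
Axl: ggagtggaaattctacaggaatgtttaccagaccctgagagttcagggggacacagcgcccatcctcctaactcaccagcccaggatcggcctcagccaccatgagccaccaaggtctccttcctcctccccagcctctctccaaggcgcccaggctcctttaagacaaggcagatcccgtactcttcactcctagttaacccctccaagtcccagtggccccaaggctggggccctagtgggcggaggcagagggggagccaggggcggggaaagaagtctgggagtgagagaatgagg
Timd4: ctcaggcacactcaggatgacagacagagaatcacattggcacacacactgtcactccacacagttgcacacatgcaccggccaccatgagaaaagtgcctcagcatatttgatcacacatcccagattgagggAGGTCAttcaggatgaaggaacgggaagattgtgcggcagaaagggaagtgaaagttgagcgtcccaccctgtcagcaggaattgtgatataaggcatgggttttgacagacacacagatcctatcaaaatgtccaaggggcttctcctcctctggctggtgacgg
Pros1: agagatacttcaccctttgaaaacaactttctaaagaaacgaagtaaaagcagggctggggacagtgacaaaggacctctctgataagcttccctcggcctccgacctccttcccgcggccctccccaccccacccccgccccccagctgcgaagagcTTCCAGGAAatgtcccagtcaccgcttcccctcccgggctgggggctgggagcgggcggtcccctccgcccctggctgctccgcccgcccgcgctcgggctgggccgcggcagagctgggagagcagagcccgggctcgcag
Itgb5: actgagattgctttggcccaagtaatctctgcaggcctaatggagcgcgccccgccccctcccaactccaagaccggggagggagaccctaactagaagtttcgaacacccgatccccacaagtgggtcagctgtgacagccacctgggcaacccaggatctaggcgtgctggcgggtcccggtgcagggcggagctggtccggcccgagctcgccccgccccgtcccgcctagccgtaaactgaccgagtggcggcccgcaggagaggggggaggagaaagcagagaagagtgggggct
The Timd4 promoter held 1 match to the nuclear receptor half-site, which starts at position -116, and 16.3% of all 32851 promoters hold one. The Pros1 promoter held 1 GAS match, TTCCAGGAA, which starts at position -92, and 8.3% of all promoters hold one. In the Axl and Itgb5 windows, none of the 5 motifs was matched. Among the other members, Lrp1 held a GAS match and Tyro3 an NF-kB match, both starting at position -232, and 8.46% of all promoters hold the latter. Over all promoters, 3.44% held the interferon type and 4.07% the ETS type motif, and no member held either of them. A match is a run of letters and was not measured as a bound site.

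Among the TAM receptors, Axl was higher after treatment, Mertk was moderately higher without passing the threshold, and Tyro3 was near the detection limit in both groups. MERTK is the TAM receptor through which macrophages take up apoptotic cells in the steady state. Its gene (NCBI gene 17289, mm9 chr2:128524692-128628630, plus strand) was at 35.5, 37.3, 32.3, 50.01 and 55.3 CPM in control replicates 1 to 5. In ox-LDL replicates 1 to 5, Mertk was at 62.8, 57.0, 49.1, 81.5 and 74.2 CPM. The groups overlapped, since ox-LDL replicate 3 was below control replicates 4 and 5. The mean of Mertk was 42.1 ± 10.0 CPM in the control and 64.9 ± 13.03 CPM in the ox-LDL group (SD, n = 5 each), which gave a log2 difference of 0.63 (s.e. 0.21, adjusted p of 0.044 by edgeR's QL test). Under none of 24 settings, the one used here and 23 alternatives, was the adjusted p of Mertk below 0.01. Mertk shares its locus with the antisense transcript Gm14011 and with SNORA25, and the sources used here do not say if reads were counted by strand.

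AXL is the TAM receptor known to be induced in activated macrophages, and it depends on GAS6 as its ligand. Axl (NCBI gene 26362, mm9 chr7:26542292-26573724, minus strand) was at 14.5, 12.3, 13.6, 21.9 and 46.7 CPM in control replicates 1 to 5. The values in ox-LDL replicates 1 to 5 were 53.4, 49.5, 55.2, 73.8 and 139 CPM. The groups did not overlap, but replicate 5 was the highest library of each group and control replicate 5 came close to the lowest ox-LDL library. The mean rose from 21.8 ± 14.4 to 74.2 ± 37.6 CPM (SD, n = 5 each), a 3.41-fold difference with a log2 fold change of 1.77 (s.e. 0.42, adjusted p of 0.00895 by edgeR's QL test). This call was close to the threshold. It was lost when control replicate 1, 2, 3 or 4 or ox-LDL replicate 1, 3, 4 or 5 was left out, with adjusted p values of 0.0105 to 0.0279, and was kept without control replicate 5 (log2 fold change 2.25, adjusted p of 0.00119), without ox-LDL replicate 2 (1.84, adjusted p of 0.00615) and, in a fit added after the data were seen, without both replicate 5 libraries (1.84, adjusted p of 0.000877). The sign stayed positive under all 24 settings, and the adjusted p was below 0.01 under 11 of them. Control replicate 5 and ox-LDL replicate 5 were also the highest of their groups for Socs3, which encodes a feedback inhibitor of cytokine signaling, with 8.43 CPM against 1.88 to 3.04 in the other controls and 506 CPM where ox-LDL replicates 1 to 4 ranged from 49.1 to 116, and the part of this response in the level of Axl was not tested.

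Tyro3 (NCBI gene 22174, mm9 chr2:119623469-119643840, plus strand), the TAM receptor best known from the nervous system, had 0, 0, 7, 0 and 2 counts in control replicates 1 to 5. For ox-LDL replicates 1 to 5, the values were 8, 3, 8, 10 and 7 counts. A count of 0 allows a level of up to 0.166 CPM in control replicate 1, 0.128 CPM in control replicate 2 and 0.155 CPM in control replicate 4, for counting error alone. The groups overlapped, and with a log2 fold change of 2.09 in a fit without a filter on low counts the adjusted p was 0.0898 by edgeR's QL test.

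**Figure D2:**
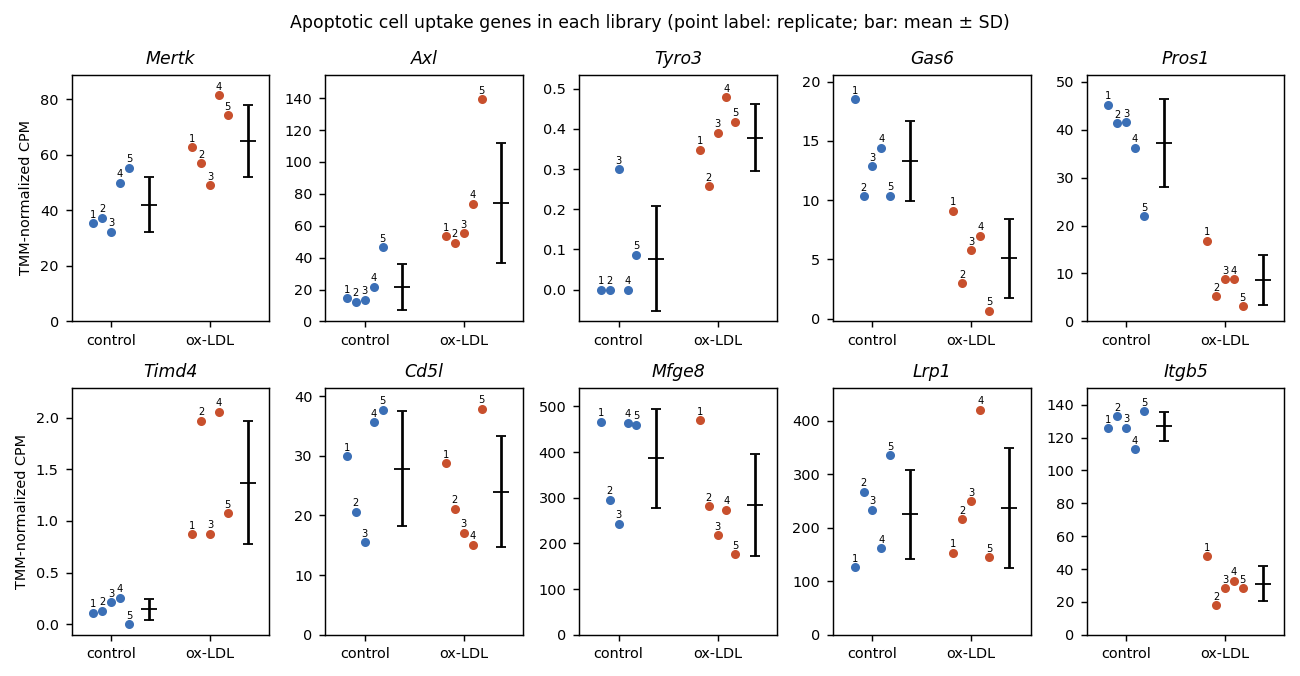
TMM-normalized CPM of each of the 10 members in the 5 control and the 5 ox-LDL libraries, 1 point per library. Itgb5, Pros1 and Gas6 lie lower and Axl and Timd4 higher in every ox-LDL library than in any control library, and the remaining members overlap.

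The balance between the inducible and the steady-state TAM receptor was on average more toward Axl in the ox-LDL group. The log2 ratio of Axl to Mertk, taken within each library from length-scaled values (FPKM) so that it does not depend on how libraries are scaled to each other, was -1.15, -1.31, -0.89, -0.84 and 0.09 in control replicates 1 to 5. In ox-LDL replicates 1 to 5, the log2 ratio of Axl to Mertk was 0.06, -0.00, 0.48, 0.15 and 1.31. Control replicates 1 to 4 thus held less Axl than Mertk per length, whereas control replicate 5 lay among the ox-LDL libraries. The mean log2 ratio was -0.82 ± 0.54 in the control and 0.40 ± 0.54 in the ox-LDL group (SD, n = 5 each), a difference of 1.22 that was not tested. On CPM the difference of the log2 ratios was also 1.22, without overlap. The gap was narrow, with the highest control at -0.246 and the lowest ox-LDL library at -0.235. The effective length implied by count and FPKM for Mertk was 4360 bases in control replicate 1 and 5156 bases in ox-LDL replicate 5, so it was not constant.

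**Figure D3:**
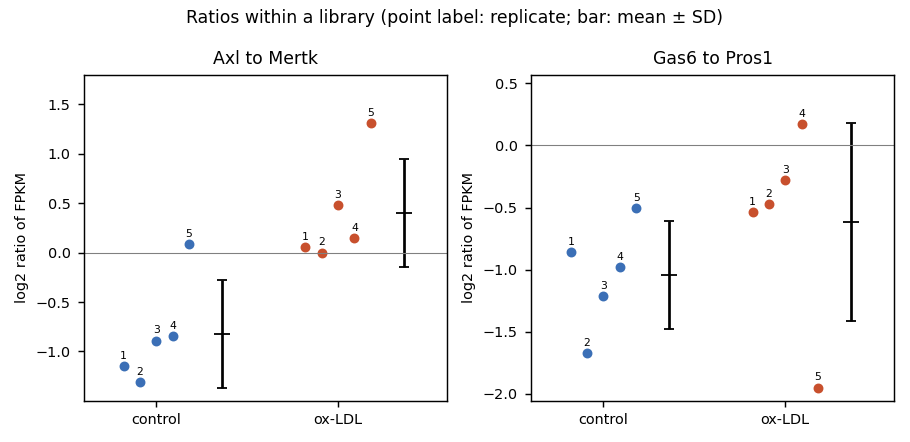
Log2 ratio of FPKM of Axl to Mertk and of Gas6 to Pros1, 1 point per library, with the mean and SD of each group. The Axl to Mertk ratio averages -0.82 in control and 0.40 in ox-LDL libraries, and the Gas6 to Pros1 ratio overlaps between the groups.

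The TAM ligand genes had lower levels in all ox-LDL libraries, and the difference passed the threshold for Pros1. Protein S, best known as an anticoagulant cofactor, bridges phosphatidylserine to MERTK and TYRO3. Pros1 (NCBI gene 19128, mm9 chr16:62854133-62929172, plus strand) was at 45.2, 41.4, 41.5, 36.3 and 21.9 CPM in control replicates 1 to 5. The values in ox-LDL replicates 1 to 5 were 16.8, 5.31, 8.78, 8.76 and 3.23 CPM. Replicate 5 was the lowest library of each group, and the groups did not overlap. The mean fell from 37.3 ± 9.16 to 8.58 ± 5.18 CPM (SD, n = 5 each), which gave a log2 difference of -2.11 (s.e. 0.39, adjusted p of 0.00186 by edgeR's QL test). The call held under all 24 settings, with log2 fold changes from -2.51 to -1.92 and adjusted p values from 2.24e-07 to 0.00744.

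GAS6 is the ligand shared by all TAM receptors and the one that activates AXL. Gas6 (NCBI gene 14456, mm9 chr8:13465374-13494535, minus strand) was at 18.5, 10.3, 12.8, 14.4 and 10.4 CPM in control replicates 1 to 5. For ox-LDL replicates 1 to 5, the values were 9.09, 3.00, 5.75, 6.98 and 0.657 CPM. Every ox-LDL library was below every control library, although ox-LDL replicate 1 came close to control replicate 2. The mean was 13.3 ± 3.401 CPM in the control and 5.10 ± 3.32 CPM in the ox-LDL group (SD, n = 5 each), but with a log2 fold change of -1.37 (s.e. 0.49) the adjusted p was 0.0569 by edgeR's QL test, and it was not below 0.01 under any of the 24 settings (0.0144 to 0.124). The log2 ratio of Gas6 to Pros1 from FPKM was -1.04 ± 0.43 in the control and -0.61 ± 0.80 in the ox-LDL group (SD, n = 5 each), which was within the spread of the libraries. Thus, Axl was higher while the transcript of its ligand was not called in either direction.

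Timd4 and Cd5l are known from resident peritoneal macrophages, and they differed in what the data showed. TIM-4 tethers apoptotic cells to the macrophage surface. Timd4 (NCBI gene 276891, mm9 chr11:46624302-46657834, plus strand) had 2, 3, 5, 5 and 0 counts in control replicates 1 to 5. In ox-LDL replicates 1 to 5, Timd4 had 20, 23, 18, 43 and 18 counts. The groups did not overlap, yet the level was low in both, at 0.142 ± 0.0998 CPM in the control and 1.37 ± 0.594 CPM in the ox-LDL group (SD, n = 5 each). The log2 fold change was 3.22 (s.e. 0.57, adjusted p of 0.00161 by edgeR's QL test), and it rested on 15 counts in all controls together against 122 in the ox-LDL libraries. Timd4 passed the filter on low counts through the ox-LDL libraries alone, so that the filter itself favored a difference, and the call held under the 21 settings that tested it. The effective length implied by count and FPKM was 763 to 1300 bases in the controls and 1104 to 2009 bases in the ox-LDL libraries, so it was not constant for this gene, whose counts are few.

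CD5L, also called AIM, is secreted by tissue macrophages and binds lipids and cell debris. Cd5l (NCBI gene 11801, mm9 chr3:87161803-87174996, plus strand) was at 29.9, 20.6, 15.5, 35.6 and 37.7 CPM in control replicates 1 to 5. The values in ox-LDL replicates 1 to 5 were 28.7, 21.1, 17.1, 15.1 and 37.9 CPM. The groups covered the same range, and the difference was not detectable (log2 fold change -0.21, s.e. 0.31, adjusted p of 0.652 by edgeR's QL test). Summed over the 11 marker genes of resident large peritoneal macrophages, the level was 18.9 to 47.8 CPM in the control and 49.9 to 187 CPM in the ox-LDL libraries. This difference came from Serpinb2, a serine protease inhibitor gene that also responds to LPS. Without it, the summed level of the other 10 was 16.0 to 45.7 CPM in the control and 9.34 to 32.1 CPM in the ox-LDL libraries, with overlap. Of the 7 genes of this list that were tested, Serpinb2 alone was called. Gata6, which encodes the defining transcription factor of these cells, was at 1.17 CPM in the control and 1.02 CPM in the ox-LDL group on average (adjusted p of 0.802 by edgeR's QL test), Icam2 at 4.82 and 1.96 CPM without overlap (adjusted p of 0.014) and Prg4 at 0.965 and 2.66 CPM (adjusted p of 0.0677). Selp, at 1.03 and 0.0821 CPM, and F5, at 0.898 and 0.281 CPM, had too few counts to be tested. The part of resident cells in the rise of Timd4 was not tested.

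In the integrin route, the receptor subunit Itgb5 was lower after treatment, whereas its bridging protein Mfge8 was not called. Integrin β5 pairs with αv, the product of Itgav, and the heterodimer engages MFG-E8 on apoptotic cells. Itgb5 (NCBI gene 16419, mm9 chr16:33829751-33949239, plus strand) was at 126, 133, 126, 113 and 136 CPM in control replicates 1 to 5. For ox-LDL replicates 1 to 5, the values were 47.7, 18.2, 28.3, 32.9 and 28.4 CPM. The controls were close to each other, with a coefficient of variation of 6.98%, and far above every ox-LDL library. The mean fell from 127 ± 8.85 to 31.1 ± 10.8 CPM (SD, n = 5 each), which gave a log2 difference of -2.03 (s.e. 0.24, adjusted p of 0.000113 by edgeR's QL test). The call held under all 24 settings, with a log2 fold change from -2.26 to -1.92, although not always beyond 2. The partner Itgav was at 23.6 ± 10.5 CPM in the control and 42.6 ± 15.0 CPM in the ox-LDL group (SD, n = 5 each), which gave a log2 difference of 0.85 in the opposite direction that did not pass the threshold (s.e. 0.35, adjusted p of 0.0951 from the same test).

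MFG-E8, secreted by macrophages, was encoded by the most abundant transcript of the 10. Mfge8 (NCBI gene 17304, mm9 chr7:86278655-86293946, minus strand) was at 467, 295, 243, 464 and 459 CPM in control replicates 1 to 5. In ox-LDL replicates 1 to 5, it was at 469, 282, 218, 274 and 176 CPM. The groups overlapped, and in the ox-LDL group replicate 1 alone reached the upper level of the controls. The mean was 386 ± 108 CPM in the control and 284 ± 112 CPM in the ox-LDL group (SD, n = 5 each), and with a log2 fold change of -0.44 (s.e. 0.30) the adjusted p was 0.305 by edgeR's QL test. Without ox-LDL replicate 1, the log2 fold change was -0.70 (adjusted p of 0.0812 by the same test).

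LRP1 takes up lipoproteins and, with calreticulin as a partner, apoptotic cells. Lrp1 (NCBI gene 16971, mm9 chr10:126975217-127058204, minus strand) was at 127, 268, 234, 162 and 336 CPM in control replicates 1 to 5. The values in ox-LDL replicates 1 to 5 were 153, 217, 249, 421 and 145 CPM. The spread within each group was larger than the difference between the means of 225 ± 83.4 and 237 ± 112 CPM (SD, n = 5 each). With a log2 fold change of 0.07 (s.e. 0.35) the adjusted p was 0.904 by edgeR's QL test, and the sign turned with the scaling of the libraries, being -0.054 under upper-quartile normalization and -0.37 with the length trend removed. Lrp1 overlaps the antisense gene Gm16217, with the same limit on strand as for Mertk.

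Levels of different genes were compared per length, as FPKM, without a test. In the control group, the order was Mfge8 (204 ± 47.9 FPKM), Itgb5 (46.2 ± 7.05), Lrp1 (21.1 ± 9.27), Cd5l (15.5 ± 5.16), Pros1 (12.8 ± 3.12), Mertk (9.20 ± 2.20), Gas6 (6.09 ± 0.999), Axl (5.95 ± 4.28), Timd4 (0.166 ± 0.116) and Tyro3 (0.024). Among neighbors in this order, the ranges over the 5 libraries were separate between Mfge8 and Itgb5, between Itgb5 and Lrp1 and between Axl and Timd4, and all other neighbors overlapped. In the ox-LDL group, the order was Mfge8 (141 ± 83.9 FPKM), Lrp1 (19.9 ± 12.7), Axl (17.6 ± 8.11), Mertk (12.8 ± 4.35), Cd5l (11.9 ± 5.08), Itgb5 (10.7 ± 5.51), Pros1 (2.92 ± 2.26), Gas6 (2.32 ± 1.83), Timd4 (0.81 ± 0.443) and Tyro3 (0.104 ± 0.0404). Here only Mfge8 and Lrp1, and Timd4 and Tyro3, were separate from each other. Axl moved from place 8 to place 3 and Itgb5 from place 2 to place 6, while Mfge8 was first and Tyro3 last in both groups.

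**Figure D4:**
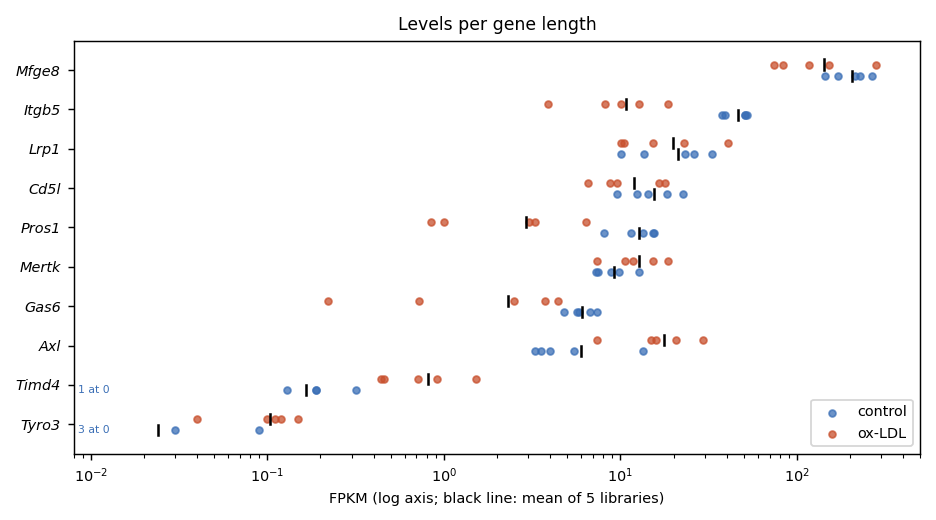
FPKM of the 10 members on a log axis in the order of the control means, 1 point per library for control and ox-LDL. Mfge8 is the highest and Tyro3 the lowest in both groups, and the ox-LDL points of Itgb5 lie below those of the control while those of Axl lie mostly above.

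Beyond the members, 109 genes of the uptake pathway were taken from 8 lists, of which 106 had a row and 94 were tested. Of these, 20 were higher and 7 were lower, against the 9.4% and 5.35% of all genes, and the median log2 fold change was 0.19 against 0.10. The lists were written with earlier results of these data known, so these counts are a description and not a test. Among 14 other uptake receptors tested, 3 were higher and 2 were lower (median -0.14), and DESeq2 called 3 higher and 4 lower. Over all 12654 genes tested, DESeq2 called 1765 higher and 1244 lower and limma-voom 1139 and 792. Their counts by list, here and below, are therefore to be set against these numbers and not against 9.4% and 5.35%. For the counts at an unadjusted p below 0.05 given below, no share of all genes is at hand. Marco, a class A scavenger receptor gene, rose from 5.01 ± 5.495 to 87.0 ± 56.2 CPM (log2 fold change 4.12), Cd14, the LPS co-receptor gene, from 86.1 ± 19.1 to 406 ± 244 CPM (2.24) and Scarf1 from 5.48 ± 1.20 to 23.8 ± 12.4 CPM (2.12). By contrast, Havcr2, which encodes TIM-3, fell from 22.6 ± 5.99 to 3.33 ± 2.51 CPM (-2.75), and Cd300lb, a receptor gene of the CD300 family, fell from 396 ± 27.2 to 76.4 ± 17.2 CPM (-2.37). All values with ± are SD with n = 5 per group, and the adjusted p of these 5 genes ranged from 2.72e-05 to 0.00143 by edgeR's QL test. Marco was not called in the fit without a filter on low counts (adjusted p of 0.0151).

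Among 8 other bridging proteins tested, Anxa1 was lower and none was higher (median -0.68), and at an unadjusted p below 0.05 none was higher and 2 were lower by edgeR, with none called higher by DESeq2 or limma-voom either. Annexin A1, which helps phagocytes bind apoptotic cells, fell from 3259 ± 908 to 658 ± 279 CPM (log2 fold change -2.31, adjusted p of 0.00106 by edgeR's QL test, SD, n = 5 each). Among 7 genes of find-me and don't-eat-me signals tested, Gpr132, a receptor gene for a lipid attractant of dying cells, was higher (5.27 ± 1.23 to 32.7 ± 21.1 CPM, 2.63), and none was called lower. At an unadjusted p below 0.05, 2 of these were higher and 1 was lower, and DESeq2 and limma-voom called none lower. Of the 14 genes of engulfment signaling tested, which carry the signal from receptor to cytoskeleton, none was called by edgeR or limma-voom (median -0.03). At an unadjusted p below 0.05, 4 were higher and 2 lower, with no share of all genes at hand. DESeq2 called 4 higher and 1 lower, beside 1765 higher and 1244 lower of all 12654 genes tested.

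For corpse digestion and metabolism, 5 of 19 genes were higher and none was lower (median 0.20), and at an unadjusted p below 0.05 the counts were 7 and 5, while DESeq2 called 6 higher and 4 lower and limma-voom 6 and 0. Slc7a11, which encodes the cystine transporter, rose from 7.90 ± 2.90 to 247 ± 144 CPM (log2 fold change 4.97). Cybb, the catalytic subunit gene of the phagocyte NADPH oxidase, rose from 699 ± 136 to 3538 ± 1436 CPM (2.34), and Abca1, the cholesterol efflux transporter gene, from 49.5 ± 4.05 to 212 ± 22.9 CPM (2.10; SD, n = 5 each). The adjusted p of these was 6.16e-05, 0.000371 and 1.19e-05 by edgeR's QL test.

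Proteases that can release receptors such as MERTK from the cell surface were taken with their regulators and inhibitors as a list of 9, all tested, of which 3 were higher and 1 was lower (median 1.04), and DESeq2 called 4 higher and 1 lower. The 3 higher genes include an inhibitor, Timp3, which encodes a known inhibitor of ADAM17 and was named after its values were seen (0.666 ± 0.159 to 4.42 ± 2.81 CPM, log2 fold change 2.73, adjusted p of 0.000714). Adam17, the known sheddase of MERTK, was at 151 ± 17.8 CPM in the control and 228 ± 67.3 CPM in the ox-LDL group (SD, n = 5 each), which gave a log2 difference of 0.59 that did not pass the threshold (adjusted p of 0.0817 by edgeR's QL test) but passed it without ox-LDL replicate 2 (0.70, adjusted p of 0.0052). Rhbdf2, which encodes iRhom2, the protein that brings ADAM17 to the surface, rose from 12.6 ± 3.28 to 44.9 ± 17.9 CPM (1.83, adjusted p of 0.000839). It was not called by limma on log2(FPKM + 1) or log2(FPKM + 0.1), with adjusted p values of 0.0108 and 0.0123. Mmp14, a membrane-bound metalloproteinase gene, rose from 28.8 ± 18.1 to 176 ± 83.5 CPM (2.61, adjusted p of 0.00104). Adam10 fell from 93.1 ± 2.97 to 48.2 ± 13.4 CPM (-0.95, adjusted p of 0.00556). This call was lost when any of the 5 controls or ox-LDL replicate 3 or 4 was left out, with the adjusted p over all single libraries left out from 0.000747 to 0.0168. It was also lost with library size alone (adjusted p of 0.04), both limma fits on FPKM, the replicate block and without both replicate 5 libraries, so that Adam10 was called under 12 of the 24 settings.

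Among 17 transcription regulators of uptake genes, 5 were higher and 3 were lower (median 0.23). Among those that fell were Pparg (109 ± 23.4 to 20.01 ± 5.78 CPM, log2 fold change -2.45), which encodes a nuclear receptor, and Maf (28.0 ± 6.61 to 9.01 ± 3.97 CPM, -1.64), which encodes a leucine zipper factor, both known from macrophages that clear apoptotic cells. The interferon-related factor genes Irf1 (24.0 ± 5.03 to 625 ± 347 CPM, 4.70) and Irf7 (23.3 ± 24.3 to 543 ± 336 CPM, 4.54) rose. The adjusted p of these 4 ranged from 2.14e-05 to 0.00189 by edgeR's QL test, with SD and n = 5 each. Of 6 genes tested on the list of feedback inhibitors, type I interferon receptor chains and cytokines tied to TAM signaling, 3 were higher and none was lower (median 0.90), also by DESeq2, by limma-voom and at an unadjusted p below 0.05. Socs3 rose from 3.53 ± 2.78 to 169 ± 190 CPM (5.58, adjusted p of 0.000322) and Socs1 from 0.628 ± 0.493 to 22.2 ± 24.3 CPM (5.12, adjusted p of 0.000712). Socs1 was low in the controls, with 68 counts in all 5 together, and dropped out of the test with a minimum of 10 counts per library. Ifnar2, a chain of the type I interferon receptor, rose from 132 ± 26.4 to 393 ± 200 CPM (1.58, adjusted p of 0.00438). Ifnar2 was called under 16 of the 24 settings. The call was lost when any of the 5 controls or ox-LDL replicate 5 was left out, with adjusted p values over all single libraries left out from 0.00332 to 0.0158.

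**Figure D5:**
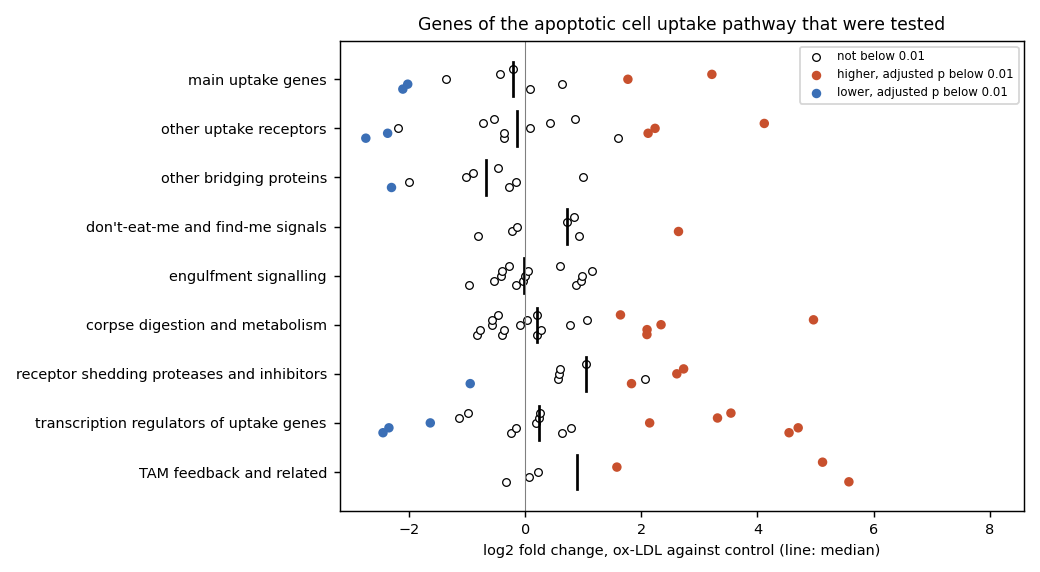
Log2 fold change of ox-LDL against control for the genes tested among the members (main uptake genes) and in each of the 8 other lists of the uptake pathway. Each point is 1 gene, with called genes marked and the median of each list. The medians run from -0.68 for other bridging proteins to 1.04 for shedding proteases, against 0.10 over all genes.

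Over the 10 libraries, the genes whose log2(CPM + 1) was most like that of Axl were Tnfrsf14 (Pearson's r 0.974), Ly9 (0.973) and Mefv (0.972). For Mertk they were Rnf126 (0.962), Map3k14 (0.939) and Zfpl1 (0.935). These correlations are a description over 10 libraries that include both groups, and the libraries share their depth and scaling.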

How the data were processed

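RNA-seq was performed by the authors on peritoneal macrophages, with 5 control and 5 ox-LDL libraries on the BGISEQ-500 platform. The submitters' processing notes name FastQC, HISAT2 (2.0.5), SAMtools (1.4), StringTie (1.3.3.13) and the build mm9. The authors deposited estimated counts per gene (expected counts), of which 13.6% were not whole (tolerance 1e-06), and a length-scaled value that fits FPKM (median coefficient of variation of the implied gene length 2.3%). The counting step, the annotation, the handling of strand and of reads shared by similar genes are not given in the sources used here.

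Estimated counts were rounded, 9788 circular RNA rows (1.44% to 2.24% of counts) were left out, and genes were filtered with filterByExpr, normalized by TMM and tested with edgeR 4.0.16 (quasi-likelihood, robust, R 4.3.3). Alternatives were DESeq2 1.42.0, limma-voom and limma on log2(FPKM + 1) and log2(FPKM + 0.1) (limma 3.58.1; FPKM of at least 1 in 5 libraries), other scalings and filters, the length trend removed, the replicate number as a block and each library left out. The threshold of 0.01 and the log2 fold change of 2 are those of the study, which gives no test for this comparison. Labels give 5 biological replicates per group.

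On simulated data over 12513 genes, edgeR recovered 64 of 97 genes changed by a log2 fold of 2 and 6 of 100 changed by a log2 fold of 1, with 1 false call; DESeq2 recovered 87 and 26 with 17 false calls. In this simulation, small differences were therefore often not detectable. It changed only 200 genes, a smaller share than the 14.7% called in the data, so its recovery need not hold for the data.

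Symbols came from RefSeq through NCBI gene identifiers (22818 of 23382 paired), coordinates from GENCODE on NCBIM37, which is mm9, and promoters from RefSeq on GRCm38.p6. No row was found for Tub, Tulp1 and Lilrb3. The members and lists were chosen with earlier results of these data known. Named in the text were all 10 members, Itgav, Adam17, and in each list up to 3 called genes with the highest and 3 with the lowest log2 fold change and a mean of at least 10 CPM in the higher group; genes of the marker lists were named after their values were seen. Marker sums for monocytes, neutrophils, B cells, T and NK cells, dendritic cells, eosinophils and mast cells, and platelets overlapped between the groups, although single markers on 4 of these lists were called. A few genes that this rule names are left out of the text.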

Additional observations from a re-analysis of the deposited data

Results flagged for a closer look

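In 2 of the 24 groups of 5 libraries examined, against 1.2 that chance gives, a library lay far from the rest, and both concern Axl. In the control group, replicate 5 held 46.7 CPM of Axl against 21.9 CPM in the next library, a gap of 0.72 of the whole range of the group. In the ox-LDL group, replicate 5 held 139 CPM against 73.8 CPM in the next library, a gap of 0.73 of the range. The limit for 5 libraries was 0.71. It was applied to the levels of the members as CPM without a log, and the groups are not independent, since Axl also enters a ratio. The number that chance gives is therefore a rough guide, and gaps in these levels on a log scale were not examined.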

How the results depend on the processing

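Pros1 and Itgb5 were called lower under all settings, so the number of members called lower was 2 throughout. The number called higher, 2, was 1 under upper-quartile normalization, library size alone, no filter on low counts and at least 10 counts in every library, 0 with limma on log2(FPKM + 1) and log2(FPKM + 0.1), where 1 was higher at an unadjusted p below 0.05, and 1 to 2 with each library left out. With at least 10 counts in every library Timd4 was not tested, on FPKM Timd4 was not tested and Axl not called, and elsewhere Axl was the member lost. Among the other pathway genes, the number called lower, 7, was 15 with DESeq2, 15 with the length trend removed, 16 at an adjusted p below 0.05 and 6 to 11 with each library left out, the highest without ox-LDL replicate 2. The log2 fold change of Lrp1 (0.07) changed sign with upper-quartile normalization (-0.054), library size alone (-0.095), no filter (-0.003), limma on log2(FPKM + 1) (-0.15) and log2(FPKM + 0.1) (-0.16), the length trend removed (-0.37) and libraries left out (-0.24 to 0.26), and the cause was not tested. The median over all genes moved from 0.10 to -0.05 with upper-quartile normalization, -0.09 with library size alone and -0.14 with log2(FPKM + 1). Over all genes, the calls were 1189 higher and 677 lower, 1765 and 1244 with DESeq2, and 1755 and 1502 without ox-LDL replicate 2.

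The replicate numbers are shared by the groups in the labels. Same-numbered libraries deviated together in pairs 3 and 5 (correlations of 0.424 and 0.403) but not in pairs 1, 2 and 4 (0.029, -0.245 and -0.263). Some differently numbered libraries were as much alike, with 0.465 for control replicate 3 and ox-LDL replicate 4 and 0.458 for control replicate 4 and ox-LDL replicate 2. The libraries are therefore taken to share only a number. With the replicate block, 2 members were higher and 2 lower, 18 other pathway genes were higher and 6 lower, and over all genes 885 were higher and 549 lower. Axl had a log2 fold change of 1.85 (s.e. 0.187, adjusted p of 0.00029 by edgeR's QL test) with the block. The replicate 5 libraries correlated best with each other, but not every library did so with its own number.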

Other observations

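Summed over the eosinophil and mast cell markers, the level scaled by library size was 3.30 to 12.01 CPM in the control and 0.522 to 3.55 CPM in the ox-LDL libraries. Of the 8 macrophage markers, Adgre1, which encodes F4/80, was higher (269 CPM in the control and 1135 CPM in the ox-LDL group on average, log2 fold change 2.07, adjusted p of 0.000287 by edgeR's QL test) and C5ar1, the C5a receptor gene, was lower (55.6 and 8.46 CPM, -2.71, adjusted p of 8.82e-05), while the other 6 were not called. Single markers of other cell types were called although the sums of their lists overlapped. Ccr2 (log2 fold change -4.41) was lower and Vcan (1.96) higher on the monocyte list, S100a8 (2.76) was higher on the neutrophil list, Clec9a (2.33) was higher on the dendritic cell list and Siglecf (-3.32) was lower on the eosinophil and mast cell list, with adjusted p values of 0.000317 to 0.00645 by edgeR's QL test. The part of such cells in the levels of the uptake genes was not tested, and these markers were named after their values were seen.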
